A study of Mus musculus with 5 samples.

Results

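The genes described here are 8 CC chemokines made by macrophages, other myeloid cells and stroma, Ccl2, Ccl6, Ccl7, Ccl8, Ccl9, Ccl11, Ccl12 and Ccl24, together with the receptor Ccr2. They were taken by gene symbol, and all 9 were found among the 31053 gene rows of each heart matrix. The groups were hearts of 18-month-old and of 2-month-old C57BL/6 mice, with ageing named as the only treatment and 1 single-cell RNA library per age. Hearts were digested with collagenase II and dispase II, non-cardiomyocytes were sorted, and cells stained with hashtag antibodies were combined at different ratios before 3' droplet sequencing. The labels do not give the number of animals behind a library, and cells of 1 library are not replicates. No p-value is given for that reason, and all intervals cover counting error alone. The labels call the cells lymphocytes in 1 field and non-cardiomyocytes in another; the data held lymphoid, myeloid, endothelial and stromal cells, and also 143 cardiomyocyte-like cells at 18 months, against 685 at 2 months.

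CC chemokines are small secreted proteins that bind G-protein-coupled receptors on leukocytes and steer their migration. Ccl2, Ccl7 and Ccl12 are ligands of CCR2, Ccl8 is known in mice as a ligand of CCR8, and CCR2 is the receptor through which classical monocytes leave the bone marrow and enter injured tissue. Ccl11 and Ccl24 are eotaxins, which attract eosinophils through CCR3, while Ccl6 and Ccl9 are rodent chemokines of myeloid cells that signal through CCR1. In the heart, long-lived resident macrophages with LYVE1 and FOLR2 hold little CCR2, and macrophages recently derived from monocytes carry it.

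In the GENCODE annotation of the GRCm38 build, 7 of the 9 genes lie on chromosome 11 within 1557.5 kb. Ccl2 (chr11:82035571-82037453), Ccl7 (chr11:82045712-82047525), Ccl11 (chr11:82057823-82062955), Ccl12 (chr11:82101845-82103400) and Ccl8 (chr11:82115185-82116799) follow one another on the plus strand. Ccl9 (chr11:83572919-83578636) and Ccl6 (chr11:83587882-83593087) sit 9245 bases apart on the minus strand. Ccl24 lies at chr5:135569937-135573049 on the minus strand and Ccr2 at chr9:124101950-124113557 on the plus strand.

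The RefSeq promoter table (GRCm38.p6) held 5 of the 9 genes, and the 250 bases before the start of 4 of them are shown because they form neighbouring pairs whose measured patterns are compared further on. Ccl12 (chr11:82101595-82101844, plus strand) and Ccl8 (chr11:82114935-82115184, plus strand) are neighbours that both had their highest 18-month level in macrophages. Ccl9 (chr11:83578637-83578886, minus strand) and Ccl6 (chr11:83593088-83593337, minus strand) are neighbours that were both found in monocytes, dendritic cells and macrophages, while neutrophils held 45.7% of Ccl6 UMIs and 2.06% of Ccl9 UMIs at 18 months. Each sequence reads 5′ to 3′ on the strand of its gene, and capitals mark the matches to the motifs searched.
Ccl12: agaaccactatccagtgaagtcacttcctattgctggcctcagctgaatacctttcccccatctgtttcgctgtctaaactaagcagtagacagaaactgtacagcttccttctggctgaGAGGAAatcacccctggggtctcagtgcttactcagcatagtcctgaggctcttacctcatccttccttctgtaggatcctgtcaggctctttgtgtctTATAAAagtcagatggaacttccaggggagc
Ccl8: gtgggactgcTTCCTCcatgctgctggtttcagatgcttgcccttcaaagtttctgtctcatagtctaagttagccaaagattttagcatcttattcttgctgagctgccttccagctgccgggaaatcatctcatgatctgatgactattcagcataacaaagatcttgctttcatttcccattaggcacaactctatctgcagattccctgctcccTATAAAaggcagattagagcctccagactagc
Ccl9: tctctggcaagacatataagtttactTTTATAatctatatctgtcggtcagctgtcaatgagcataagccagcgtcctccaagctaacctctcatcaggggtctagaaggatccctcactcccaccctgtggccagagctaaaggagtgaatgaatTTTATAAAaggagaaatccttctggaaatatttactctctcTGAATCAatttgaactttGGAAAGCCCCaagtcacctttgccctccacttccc
Ccl6: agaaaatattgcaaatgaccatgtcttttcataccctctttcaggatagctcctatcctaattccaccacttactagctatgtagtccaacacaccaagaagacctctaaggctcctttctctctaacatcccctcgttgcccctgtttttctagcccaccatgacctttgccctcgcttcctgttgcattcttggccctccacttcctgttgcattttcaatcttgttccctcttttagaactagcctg
Both strands were searched for 7 motifs. TATAAA matched 31 bases before the Ccl12 start and 32 bases before the Ccl8 start, and 3 times in the Ccl9 promoter, where 2 matches on opposite strands overlap; it occurred in 12.4% of 32851 promoters of this length. GAGGAA, the core bound by PU.1, matched once in Ccl12 and once in Ccl8, and in 23.3% of promoters. The Ccl9 window also held the AP-1 motif TGANTCA (6.75% of promoters) and a match to the NF-kB motif (3.90%). The interferon gamma-activated site TTCNNNGAA (7.02%), the interferon-stimulated response element (2.98%) and the C/EBP motif TTGCNNAA (9.56%) had no match in the 4 windows, and Ccl6 had no match to any of the 7.

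After filtering, 7807 cells at 18 months and 10895 at 2 months were kept. The median cell held 4368 UMIs (unique molecular identifiers, each counted as 1 molecule) in the 18-month library and 8033 in the 2-month library. Clustering without the 9 genes gave 11 classes with at least 50 cells in each library, named from marker genes, while 7.76% of 18-month cells and 5.74% of 2-month cells stayed unnamed. Class make-up differed: the 18-month library held 580 fibroblasts, 652 macrophages, 314 monocytes and 933 neutrophils, and the 2-month library 3180, 532, 61 and 215. Levels are therefore given within classes, as CPM, the gene's UMIs per 1000000 UMIs summed over the class. The 2 libraries shared 29 barcodes, and both held cells with Xist and no Y-linked UMI (28.1% at 18 months and 28.3% at 2 months) and cells with the reverse (34.0% at 18 months and 41.8% at 2 months). A hashtag could be assigned to 67.3% of 18-month cells (Hashtag11 and Hashtag12) and to 38.0% of 2-month cells (Hashtag09 and Hashtag10); what the hashtags mark is not known from the labels, and ratios were also taken for the 4 pairings of an 18-month with a 2-month hashtag. From markers of other lineages, free RNA was estimated at 5.03% of macrophage UMIs at 18 months and 5.29% at 2 months, and at 5.47% of fibroblast UMIs at 18 months and 6.23% at 2 months.

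A gene was called higher or lower when its CPM in a class differed at least 1.5-fold between the ages, its 95% interval left out equality and it had at least 20 UMIs over both libraries. Over the 11 classes, 65 gene and class pairs reached 20 UMIs, of which 30 were called higher at 18 months and 5 lower; over all genes in these classes, 7.10% of measured pairs were called higher and 4.78% lower. Of the 30 higher calls, 20 concerned cells in which free RNA could give 25% or more of the gene's UMIs in at least 1 library, mostly Ccl6, Ccl9 and Ccr2 in cells with few UMIs of them. With the free-RNA estimate subtracted, 57 pairs stayed measured, 21 of the 30 higher calls remained, and 6 pairs were called lower, the same 5 among them. The 10 remaining were Ccl2, Ccl7 and Ccl11 in fibroblasts, Ccl8 and Ccr2 in macrophages, Ccl6 in neutrophils, Ccl12 in monocytes, Ccl2 and Ccl7 in group 2 innate lymphoid cells and Ccl8 in T cells. The last 4 of these each rested on at most 95 UMIs at 18 months, of which the 5 richest cells held over 90%.

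**Figure D1:**
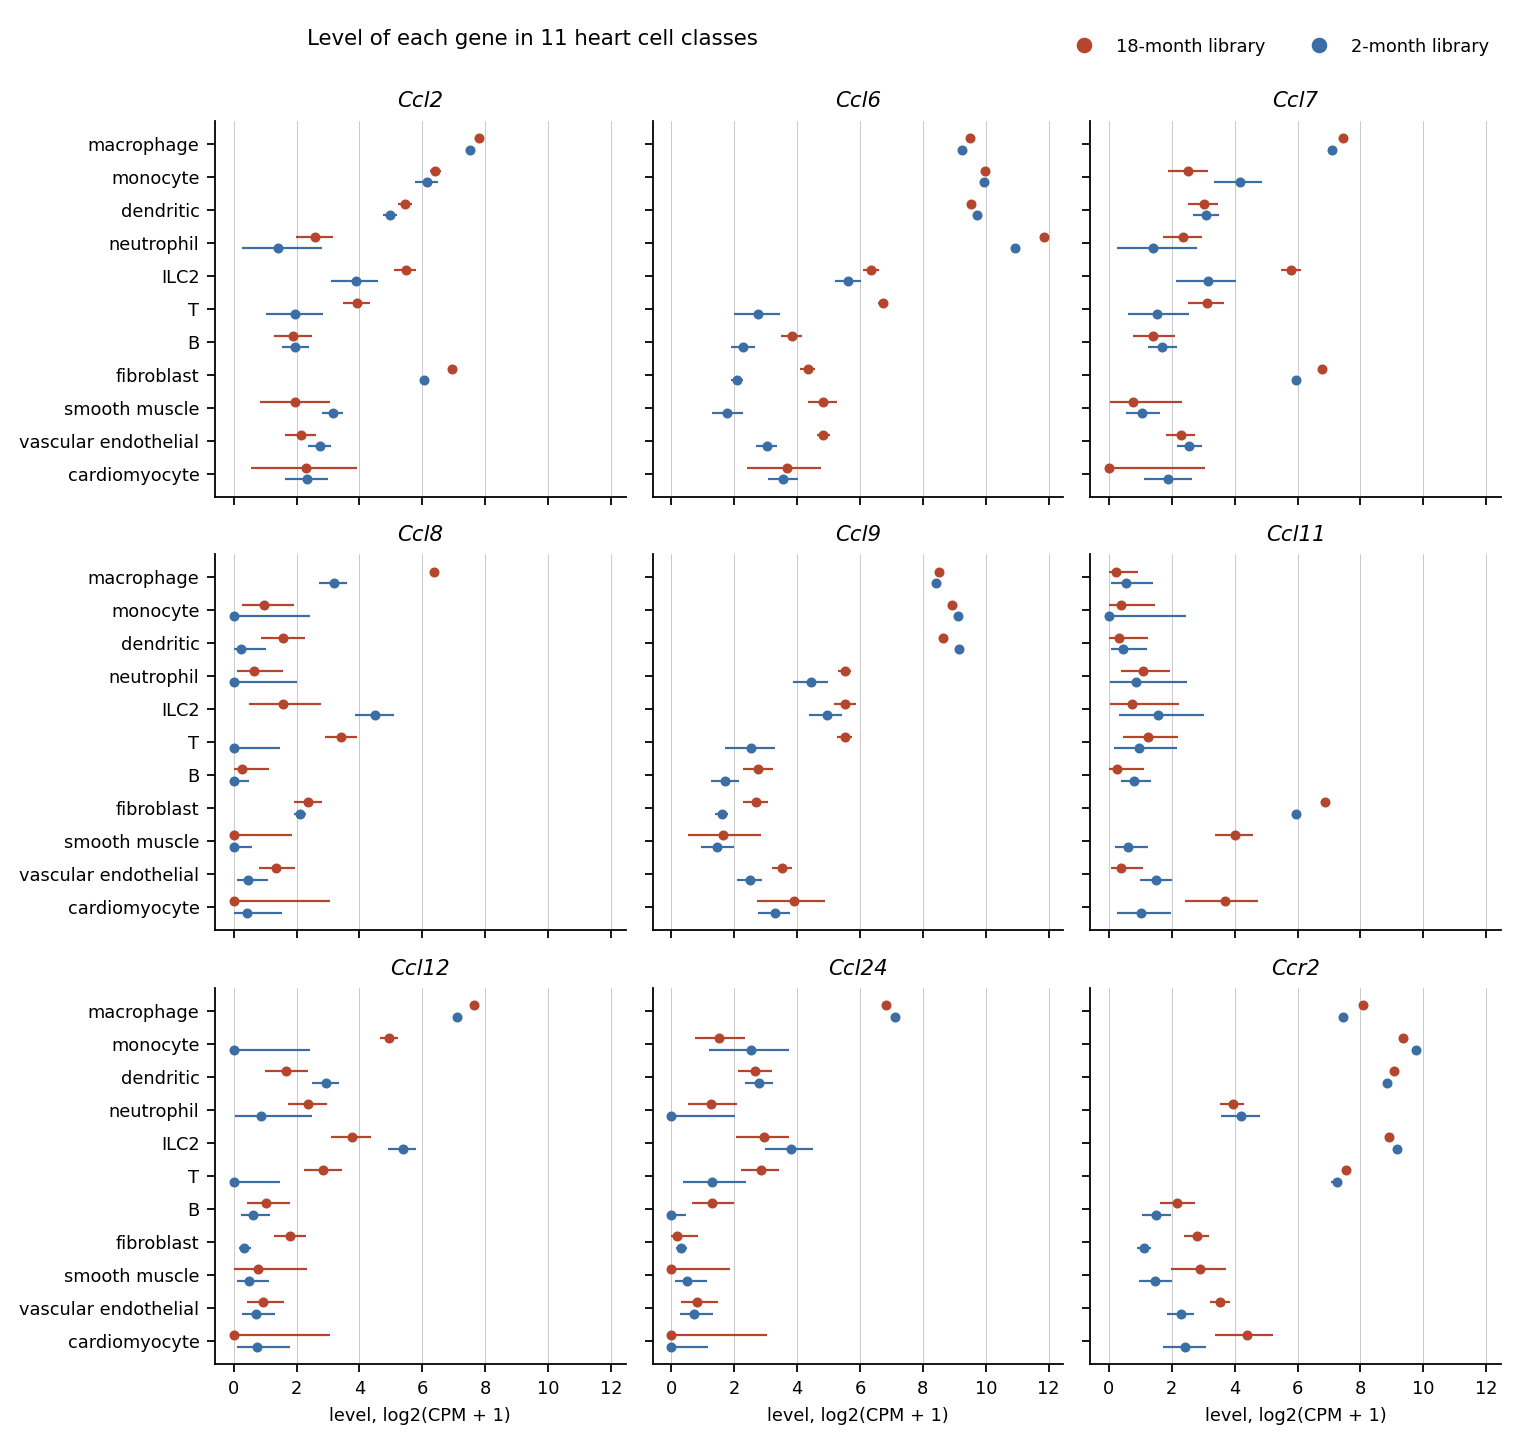
Level of each gene in 11 heart cell classes, as log2(CPM + 1) with 95% counting intervals, for the 18-month library (red) and the 2-month library (blue). Ccl6 stands highest in neutrophils, Ccl8, Ccl12 and Ccl24 in macrophages at 18 months, and Ccl11 in fibroblasts.

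Ccl8, a CCR8 ligand in mice, showed the widest separation between the ages in macrophages. Macrophages held 81.4 CPM of Ccl8 (95% interval 74.4 to 88.9; 495 UMIs) at 18 months, against 8.07 CPM (5.62 to 11.2; 35 UMIs) at 2 months, a log2 ratio of 3.33 (2.84 to 3.87). In the macrophage class 2 of 8 measured members were called higher, beside 4.41% of all genes measured there, and none lower, beside 3.56%. The signal lay in the cluster of resident macrophages (200 cells at 18 months and 211 at 2 months), which held Lyve1 at 704 CPM at 18 months and 528 CPM at 2 months and Folr2 at 891 CPM at 18 months and 628 CPM at 2 months. There Ccl8 measured 259 CPM (236 to 284; 477 UMIs) at 18 months, against 19.2 CPM (13.3 to 26.9; 34 UMIs) at 2 months, a log2 ratio of 3.75 (3.25 to 4.30). The other macrophages, with 452 cells at 18 months and 321 at 2 months and Lyve1 at 1.18 CPM at 18 months and 4.29 CPM at 2 months, had 18 UMIs of Ccl8 at 18 months and 1 at 2 months, which is below the minimum for a call.

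Few resident macrophages carried most of this Ccl8. A Ccl8 UMI was seen in 43 of 200 resident macrophages at 18 months and in 11 of 211 at 2 months. After each cell was thinned to 1000 UMIs, which left out 4 shallower cells at 18 months and 0 shallower cells at 2 months, 10.2% of 18-month and 0.474% of 2-month resident macrophages had one. Vascular endothelial cells, which should lack Ccl8, had a thinned share of 0.0957% at 18 months and no positive cell of 2455 at 2 months; their median depth was 2340 UMIs at 18 months and 2317 at 2 months, and that of resident macrophages 8726 at 18 months and 8086 at 2 months. The 5 richest cells held 54.3% of the UMIs at 18 months and 76.5% at 2 months, with up to 106 UMIs in 1 cell at 18 months and up to 7 at 2 months. With the 5 richest cells of each library left out, the log2 ratio was 4.72. That step took away 5 of the 11 positive cells at 2 months, against 5 of 43 at 18 months. The 2-month side then rested on very few UMIs, so this value adds little to the shares just given. Resident macrophages held 72.9% of all Ccl8 UMIs of the 18-month library and 13.1% of those of the 2-month library, while fibroblasts held 4.43% at 18 months and 55.0% at 2 months. In fibroblasts the level itself was 4.19 CPM at 18 months and 3.31 CPM at 2 months, and it was not called. At 2 months the highest Ccl8 level was in group 2 innate lymphoid cells, from 22 UMIs of which 21 were in 1 cell.

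Ccl12, a CCR2 ligand encoded next to Ccl8, differed less. Macrophages held 200.1 CPM at 18 months, against 137 CPM at 2 months, a log2 ratio of 0.55 (0.40 to 0.69) that stayed under the 1.5-fold limit. In resident macrophages it measured 187 CPM (168 to 208) at 18 months, against 118 CPM (103 to 135) at 2 months, and was called higher (log2 ratio 0.66, 0.41 to 0.92). The intervals do not overlap, although Ccl12 gave log2 ratios of −0.56 and −0.25 in 2 of the 4 hashtag pairings. Other macrophages held 206 CPM at 18 months and 150.1 CPM at 2 months. A single macrophage reached 379 UMIs at 18 months and another 105 at 2 months, and the 5 richest macrophages held 50.2% of the class's Ccl12 at 18 months and 43.6% at 2 months. In monocytes 95 UMIs were found at 18 months and 0 at 2 months, and 97.9% of the 18-month UMIs lay in 5 cells.

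Ccl24, an eotaxin of alternatively activated macrophages, was a resident macrophage gene at both ages. Resident macrophages held 319.5 CPM (294 to 346) at 18 months, against 263 CPM (240 to 288) at 2 months, a log2 ratio of 0.28 (0.10 to 0.46) that was not called. A UMI was seen in 55.0% of these cells at 18 months and 53.1% at 2 months. After thinning it was seen in 24.0% at 18 months and 18.0% at 2 months. The 5 resident macrophages richest in Ccl24 held 24.3% of its UMIs there at 18 months and 21.9% at 2 months. Ccl24 was thus more evenly spread over resident macrophages than Ccl8. Other macrophages held 23.6 CPM at 18 months, against 50.7 CPM at 2 months, and were called lower (log2 ratio −1.10, −1.49 to −0.72). That call rested on few cells, since 5 cells held 69.0% of the UMIs at 18 months and 84.6% at 2 months, and 3 of the alternative settings turned its sign. A cluster with markers of resident macrophages and of B cells, left unnamed (50 cells at 18 months and 87 at 2 months), also held Ccl24, at 165 CPM at 18 months and 131 CPM at 2 months. Unnamed clusters together held 28.0% of Ccl24 UMIs at 18 months and 46.4% at 2 months, and 31.2% of Ccl12 UMIs at 18 months and 50.5% at 2 months.

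**Figure D2:**
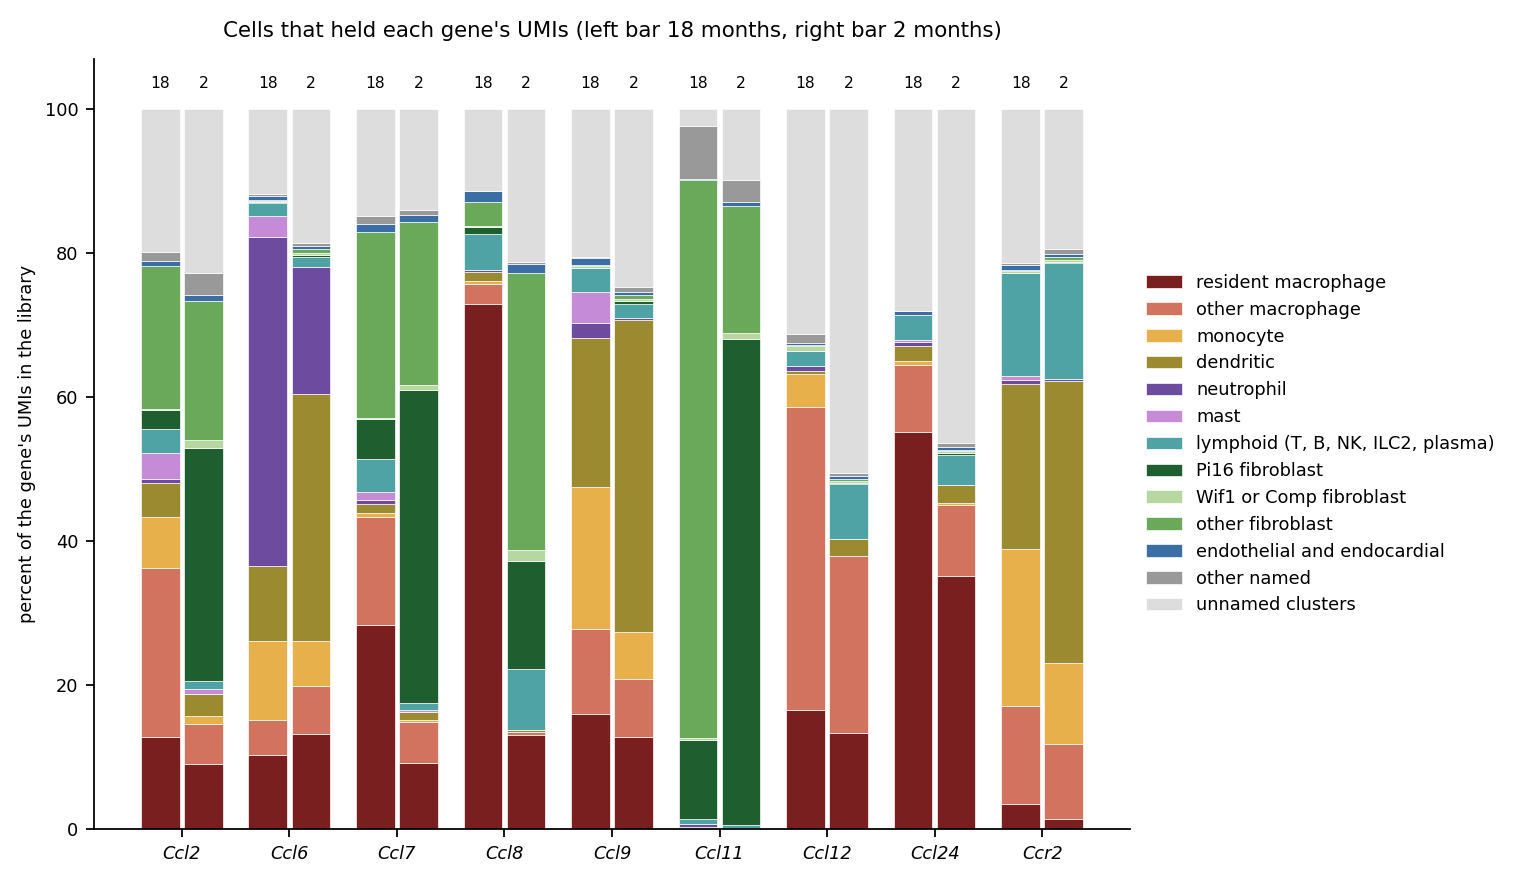
Percent of each gene's UMIs held by each group of cells, with the 18-month library as the left bar and the 2-month library as the right bar of each pair. Resident macrophages hold 72.9% of Ccl8 at 18 months and 13.1% at 2 months, while Pi16 fibroblasts hold 10.9% of Ccl11 at 18 months and 67.6% at 2 months.

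Ccl2, the principal CCR2 ligand, and Ccl7, a second CCR2 ligand encoded 8258 bases from it, had macrophages and fibroblasts as their largest named sources. Unnamed clusters held 19.8% of Ccl2 UMIs at 18 months and 22.8% at 2 months. Of Ccl7 UMIs they held 14.8% at 18 months and 14.0% at 2 months. Monocytes held 7.15% of Ccl2 UMIs at 18 months and 1.07% at 2 months. Macrophages held 36.3% of Ccl2 UMIs at 18 months and 14.6% at 2 months, while fibroblasts held 22.8% at 18 months and 52.7% at 2 months, with far fewer fibroblasts in the 18-month library. Within macrophages Ccl2 measured 222 CPM (210.3 to 234) at 18 months, against 182 CPM (170 to 195) at 2 months, and Ccl7 measured 172 CPM (162 to 183) at 18 months, against 136 CPM (125 to 147) at 2 months. The log2 ratios of 0.28 and 0.34 were both below the limit for a call. The macrophage sub-groups differed in which of the pair stood apart. Ccl7 was called higher in resident macrophages, at 373 CPM (345 to 402) at 18 months, against 205 CPM (185 to 227) at 2 months (log2 ratio 0.86, 0.68 to 1.05), where Ccl2 measured 259 CPM at 18 months and 278 CPM at 2 months (−0.10, −0.29 to 0.08). Ccl2 was called higher in other macrophages, at 206 CPM (193 to 220.1) at 18 months, against 117 CPM (104 to 131) at 2 months (0.82, 0.63 to 1.02), where Ccl7 measured 85.2 CPM at 18 months and 88.1 CPM at 2 months (−0.05, −0.29 to 0.20). Whether these sub-groups differ in their ratios was not tested. In 1 of the 4 hashtag pairings the Ccl2 ratio of other macrophages was −0.0022.

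Ccl7 was concentrated in few resident macrophages at both ages. The 5 richest resident macrophages held 59.0% of their Ccl7 at 18 months and 84.3% at 2 months, when 1 cell alone had 236 UMIs. After thinning, 11.2% of resident macrophages at 18 months and 4.27% at 2 months had a Ccl7 UMI (21.0% at 18 months and 11.4% at 2 months unthinned). Monocytes held 83.8 CPM of Ccl2 at 18 months and 69.7 CPM at 2 months, and dendritic cells 42.7 CPM at 18 months and 30.3 CPM at 2 months, and neither was called as a class. In the larger cluster of each class, described further on with Ccl9 and Ccr2, Ccl2 was called higher, at 113 CPM at 18 months, against 73.7 CPM at 2 months in the Ly6c2 monocyte cluster (0.62, 0.20 to 1.05), and at 59.8 CPM at 18 months, against 33.3 CPM at 2 months in dendritic cells with Cd209a (0.84, 0.53 to 1.16).

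In fibroblasts as 1 class, Ccl2, Ccl7 and Ccl11 were all called higher at 18 months. Ccl2 measured 122 CPM (114 to 131) at 18 months, against 66.0 CPM (63.6 to 68.4) at 2 months, a log2 ratio of 0.89 (0.78 to 1.0). Ccl7 measured 109.7 CPM (102 to 118) at 18 months, against 61.4 CPM (59.1 to 63.7) at 2 months, a log2 ratio of 0.84 (0.72 to 0.96). Ccl11 measured 116 CPM (108 to 124) at 18 months, against 60.5 CPM (58.2 to 62.9) at 2 months, a log2 ratio of 0.94 (0.82 to 1.05). In this class 7 of 8 measured members were called higher, beside 6.97% of all genes, and none lower, beside 2.91%; the other 4 higher calls were Ccl6, Ccl9, Ccl12 and Ccr2, each with an estimated free-RNA part of at least 86.3% in both libraries. The 5 fibroblasts richest in Ccl7 held 55.9% of its UMIs at 18 months and 20.4% at 2 months. The fibroblast call of Ccl2 depended on few cells. Its 5 richest fibroblasts held 69.3% of the UMIs at 18 months, with 361 in 1 cell, and 32.8% at 2 months, but 5 cells are a larger part of the 580 fibroblasts at 18 months than of the 3180 at 2 months. The richest 1% of fibroblasts held 72.8% of the Ccl2 UMIs at 18 months and 78.9% at 2 months. Without the 5 richest cells of each library the log2 ratio was −0.23, and without the richest 1% of each library it was 1.25 (1.03 to 1.47), so the direction turned on how the richest cells were left out. Ccl2 was also reversed among cells with Xist and no Y-linked UMI (−0.16) and among cells with the reverse (−1.80), where Ccl7 was reversed too (−0.82), and Ccl11 was reversed in 1 hashtag pairing (−0.37).

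Pi16 fibroblasts and the remaining fibroblasts went in opposite directions for Ccl11 and Ccl2, a difference that was not tested. The main Pi16 cluster alone, described further on, did not show it. Pi16 adventitial fibroblasts (122 cells at 18 months and 957 at 2 months) were called lower for Ccl11, at 63.2 CPM (51.3 to 76.9) at 18 months, against 148 CPM (142 to 155) at 2 months, a log2 ratio of −1.23 (−1.54 to −0.94). They were also called lower for Ccl2, at 63.2 CPM (51.3 to 76.9) at 18 months, against 126 CPM (120.2 to 132) at 2 months (−1.0, −1.30 to −0.70), while Ccl7, at 84.2 CPM at 18 months and 125 CPM at 2 months (−0.57), was not called. Among Pi16 fibroblasts 2 of 7 measured members were called higher (5.89% of all genes) and 2 lower (3.05%). The remaining fibroblasts outside the Pi16 and the Wif1 or Comp sub-groups (345 cells at 18 months and 1450 at 2 months) were called higher for all 3 genes. Their Ccl11 measured 182 CPM (169 to 196) at 18 months, against 29.5 CPM (27.1 to 32.1) at 2 months, a log2 ratio of 2.63 (2.46 to 2.79). Their Ccl2 measured 192 CPM (179 to 207) at 18 months, against 56.9 CPM (53.5 to 60.5) at 2 months (1.76, 1.62 to 1.89), and their Ccl7 162 CPM (150 to 176) at 18 months, against 49.1 CPM (45.9 to 52.4) at 2 months (1.72, 1.58 to 1.87). Ccl2 turned to −0.95 among these fibroblasts with Xist and to −1.08 among those with Y-linked UMIs, where Ccl7 was −0.22. In these cells 5 of 7 measured members were called higher (6.52% of all genes) and none lower (3.57%). Wif1 or Comp fibroblasts (113 cells at 18 months and 773 at 2 months) held Ccl11 at 1.98 CPM at 18 months and 1.99 CPM at 2 months, near the free-RNA estimate; 4 of their 7 measured members were called higher (5.25% of all genes) and none lower (2.85%).

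**Figure D3:**
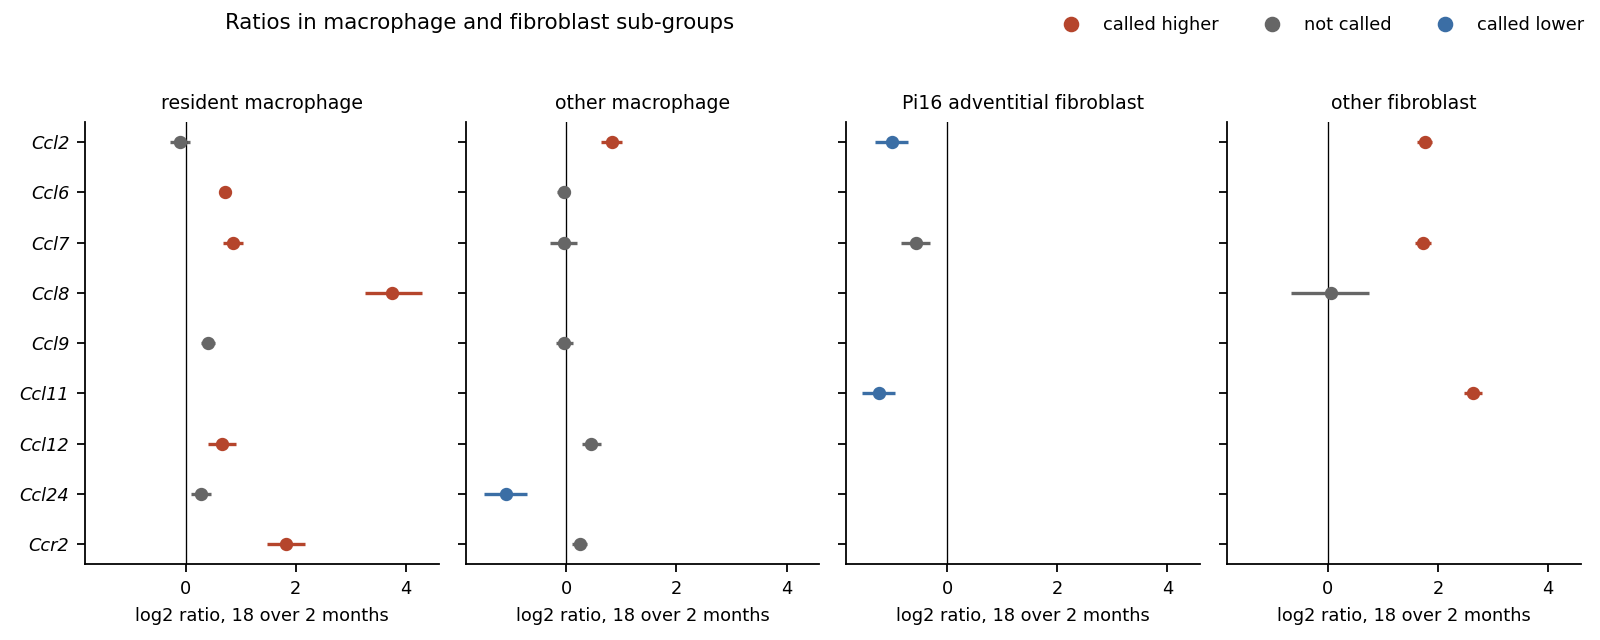
Log2 ratios of 18 over 2 months with 95% counting intervals in 2 macrophage and 2 fibroblast sub-groups, for genes with at least 100 UMIs over both libraries and a free-RNA part under 25%. Ccl11 lies at −1.23 in Pi16 adventitial fibroblasts and at 2.63 in other fibroblasts, and Ccl8 lies at 3.75 in resident macrophages.

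Ccl11, an eotaxin made by fibroblasts, was seen in more fibroblasts than Ccl2 and Ccl7, with a UMI in 16.6% of the class at 18 months and 9.03% at 2 months, where Ccl2 was in 10% and 5.66% and Ccl7 in 9.83% and 7.39% at the same ages. In the remaining fibroblasts a Ccl11 UMI was seen in 84 of 345 cells at 18 months and in 128 of 1450 at 2 months, and after thinning in 10.1% at 18 months and 2.07% at 2 months, beside 0.0478% of vascular endothelial cells at 18 months and 0.244% at 2 months. The cluster with Igfbp3, Inmt and Dpep1 among its leading genes (215 cells at 18 months and 772 at 2 months) held 219 CPM of Ccl11 at 18 months, against 25 CPM at 2 months, a log2 ratio of 3.13 (2.90 to 3.36). The cluster led by Cxcl14 and with Smoc2 (129 cells at 18 months and 549 at 2 months) held 128 CPM at 18 months, against 42.9 CPM at 2 months (1.58, 1.31 to 1.85). Both clusters had the same direction. Another cluster of the remaining fibroblasts, with Sfrp4, Wisp2 and Eln among its leading genes, had 1 cell at 18 months and 129 at 2 months. It held no UMI of the 3 genes in that 1 cell at 18 months, against 4.43 CPM of Ccl11, 61.5 CPM of Ccl2 and 179 CPM of Ccl7 at 2 months, so the make-up of the remaining fibroblasts differed between the libraries. Their Ccl11 ratio kept its sign in all 12 settings that gave a value, from 2.35 to 3.05. No hashtag pairing was among these settings, and 1 such pairing reversed Ccl11 in fibroblasts as a class.

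Within the Pi16 fibroblasts, 2 small clusters held most Ccl11. The cluster with Sult1e1, C3 and Gdf10 (15 cells at 18 months and 94 at 2 months) held 164 CPM at 18 months, against 589.8 CPM at 2 months. The cluster with Has1, Tnfaip6 and Ptx3 (7 cells at 18 months and 72 at 2 months), genes of hyaluronan-rich matrix, held 468 CPM at 18 months, against 737 CPM at 2 months. The main Pi16 cluster (100 cells at 18 months and 791 at 2 months) held 13.4 CPM at 18 months, from 17 UMIs, against 6.30 CPM at 2 months, from 68 UMIs. With the main cluster alone, the only Pi16 cluster of at least 20 cells in each library, the log2 ratio was 1.08 for Ccl11 and 0.22 for Ccl2. Among Pi16 cells with Xist it was 3.19 for Ccl11 and 0.83 for Ccl2, and under a stricter cell filter (at most 8% mitochondrial UMIs and 15000 UMIs) it was 0.15 for Ccl11. The same 2 clusters also held Ccl2 and Ccl7: the Has1 cluster had 99.1 CPM of Ccl2 at 18 months, against 605 CPM at 2 months, and 135 CPM of Ccl7 at 18 months, against 723 CPM at 2 months.

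Ccl7 UMIs were more frequent in cells with a Ccl2 UMI. After thinning, 6 of 16 fibroblasts with a Ccl2 UMI at 18 months also had a Ccl7 UMI (37.5%), against 2.34% of the fibroblasts without Ccl2. At 2 months it was 23 of 56 (41.1%), against 1.64%. Macrophages showed the like, with 14 of 56 Ccl2-positive cells (25%) against 3.08% of the others at 18 months, and 16.1% against 1.43% at 2 months. Ccl11 was found in 1 of 16 Ccl2-positive fibroblasts at 18 months (6.25%, against 6.47% of the others) and in 8 of 56 at 2 months (14.3%, against 2.51%). Of the 10 fibroblasts richest in Ccl2 and the 10 richest in Ccl7, 7 were the same cells at 18 months and 4 at 2 months.

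**Figure D4:**
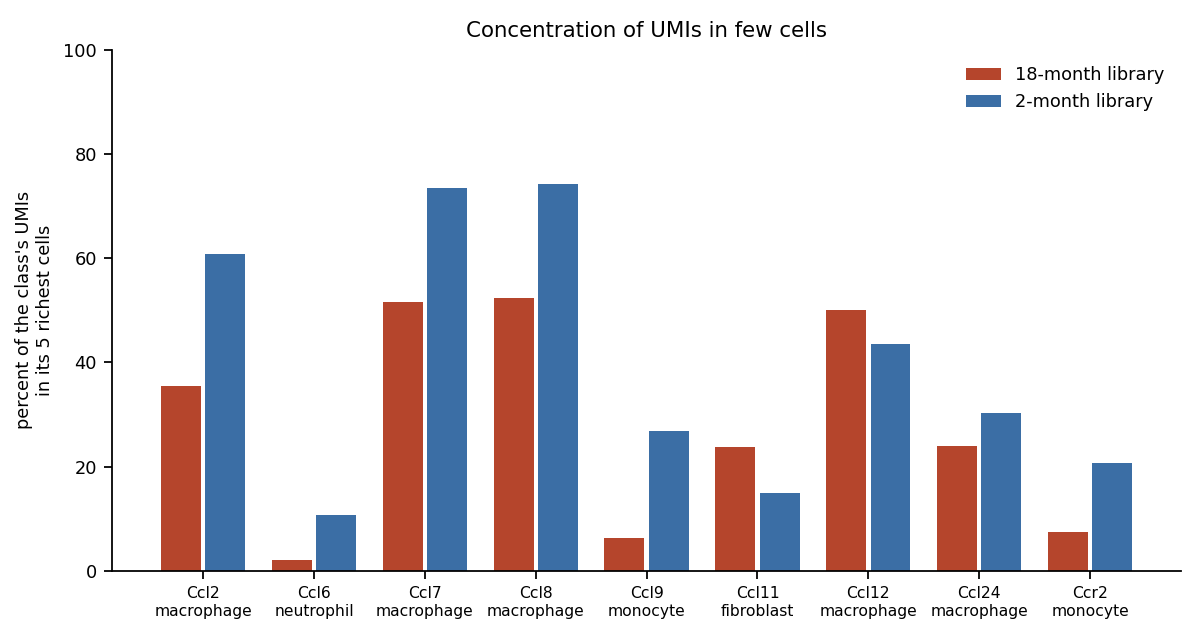
Percent of a class's UMIs held by its 5 richest cells, for each gene in its highest class, at 18 months (red) and 2 months (blue), on an axis that starts at 0. The classes differ in their number of cells, so bars of different classes or ages are not on one footing. Ccl6 stands at 2.09% at 18 months and 10.6% at 2 months in neutrophils, and Ccl8 in macrophages stands at 52.3% at 18 months and 74.3% at 2 months.

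Among the 11 classes, Ccl6, a CCR1 ligand of myeloid cells, was highest in neutrophils. Neutrophils held 3674 CPM (3611 to 3736) at 18 months, against 1951 CPM (1873 to 2032) at 2 months, a log2 ratio of 0.91 (0.85 to 0.98). In this class 2 of 4 measured members were called higher, beside 6.54% of all genes, and none lower, beside 13.3%. Most cells took part, since 96.2% at 18 months and 85.1% at 2 months had a UMI, or 87.4% at 18 months and 70.8% at 2 months after thinning, and the richest 1% of cells held 3.89% of the UMIs at 18 months and 7.35% at 2 months. The make-up of the class differed between the libraries, however. Mature neutrophils led by Retnlg made up 902 of 933 cells at 18 months and 172 of 215 at 2 months, and cells led by the granule genes Ngp, Camp and Ltf made up 14 at 18 months and 43 at 2 months. Ccl6 measured 4045 CPM in the mature cluster at 18 months, against 3186 CPM at 2 months (0.34, 0.28 to 0.41), which is under 1.5-fold. The granule-gene cluster held 422 CPM at 18 months and 438 CPM at 2 months (−0.06, −0.40 to 0.28). Camp, which encodes an antimicrobial peptide of neutrophil granules, measured 2394 CPM in the class at 18 months, against 11414 CPM at 2 months.

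Ccl6 was not called in monocytes, dendritic cells or macrophages taken as classes. Monocytes had 1009 CPM at 18 months and 981 CPM at 2 months (0.04, −0.07 to 0.15), and dendritic cells 745 CPM at 18 months and 839.6 CPM at 2 months (−0.17, −0.24 to −0.11). Macrophages as a class had 728 CPM at 18 months and 609 CPM at 2 months (0.26, 0.19 to 0.33). Resident macrophages were called higher, at 1639 CPM (1581 to 1699) at 18 months, against 993 CPM (947 to 1040) at 2 months (0.72, 0.64 to 0.81), with UMIs in 84.5% of cells at 18 months and 82.0% at 2 months, or 54.6% at 18 months and 43.6% at 2 months after thinning. Other macrophages had 333 CPM at 18 months and 344 CPM at 2 months. Mast cells or basophils, with 36 cells at 18 months and 6 at 2 months, were too few for one of the 11 classes. Their 839 UMIs of Ccl6 at 18 months gave 5124 CPM (4783 to 5483), above the level of neutrophils. At 2 months 0 UMIs of Ccl6 were found in them.

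Ccl9, a CCR1 ligand whose gene adjoins Ccl6, was shared by monocytes, dendritic cells and macrophages and was not called in any of them. Monocytes held 488 CPM (464 to 513) at 18 months and 556 CPM (507 to 609) at 2 months, and macrophages 360.3 CPM (345 to 376) at 18 months and 344 CPM (327 to 362) at 2 months. Dendritic cells held 399 CPM (380 to 418) at 18 months, against 573 CPM (553 to 593) at 2 months, a log2 ratio of −0.52 (−0.61 to −0.44) that lay just inside the limit. The make-up of the dendritic class differed: cells with Xcr1 and Clec9a, markers of cross-presenting dendritic cells, made up 28.9% at 18 months and 8.87% at 2 months and held 8.33 CPM of Ccl9 at 18 months, from 10 UMIs, and 1.93 CPM at 2 months, from 1 UMI. The larger cluster, with Cd209a and Clec10a and with Ccl9 itself among its leading genes, held 561 CPM at 18 months, against 633 CPM at 2 months (−0.18, −0.26 to −0.09). Resident macrophages held 682 CPM at 18 months and 515 CPM at 2 months (0.40, 0.28 to 0.53). Neutrophils were called higher at 44.7 CPM at 18 months, against 20.9 CPM at 2 months, where free RNA could give 16.6% of the 18-month and 36.7% of the 2-month UMIs. Ccl9 UMIs were more frequent in cells with a Ccl6 UMI: after thinning, 37.3% of Ccl6-positive macrophages at 18 months had a Ccl9 UMI, against 15% of the others, and at 2 months 35.6%, against 16.4%. In dendritic cells it was 42.3% against 14.2% at 18 months, and 58.3% against 15.9% at 2 months.

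Ccr2, the receptor, was highest in monocytes in both libraries. Monocytes held 653 CPM (625 to 682) at 18 months, against 859.9 CPM (798 to 925) at 2 months, a log2 ratio of −0.40 (−0.52 to −0.27) that was not called. The make-up of this class differed as well. Monocytes with Treml4, Spn and Ear2, genes known from non-classical monocytes, made up 131 of 314 cells at 18 months and 6 of 61 at 2 months, and held 43.7 CPM of Ccr2 at 18 months, from 37 UMIs, and no UMI at 2 months. The Ly6c2 cluster, led by Chil3, Plac8 and Ly6c2 and with Ccr2 itself among its leading genes, held 875 CPM at 18 months, against 909 CPM at 2 months (−0.06, −0.18 to 0.07). Its Ccl9 measured 622 CPM at 18 months, against 584 CPM at 2 months (0.09, −0.06 to 0.25). Dendritic cells followed with 533 CPM (511 to 556) at 18 months, against 459 CPM (442 to 478) at 2 months, and group 2 innate lymphoid cells had 478 CPM (443 to 514) at 18 months and 578 CPM (532 to 627) at 2 months. T cells held 186 CPM at 18 months and 150.0 CPM at 2 months. In none of these 4 classes was Ccr2 called. When each cell counted equally, dendritic cells and not monocytes were highest at 18 months, the only one of the 18 gene and library pairs in which the highest class changed; the second class also changed for Ccl24 at 18 months and for Ccl2 at 2 months.

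Macrophages were the myeloid class in which Ccr2 was called higher, at 268 CPM (256 to 282) at 18 months, against 174 CPM (162 to 187) at 2 months, a log2 ratio of 0.63 (0.50 to 0.75). A Ccr2 UMI was seen in 34.7% of macrophages at 18 months and 16.0% at 2 months, or after thinning in 17.5% at 18 months and 7.85% at 2 months, beside 1.15% of vascular endothelial cells at 18 months and 0.285% at 2 months. In resident macrophages the level was 182 CPM (163 to 202) at 18 months, against 51.4 CPM (41.4 to 63.2) at 2 months, a log2 ratio of 1.82 (1.48 to 2.17), with UMIs in 22.5% of cells at 18 months and 5.69% at 2 months, or 13.3% at 18 months and 1.90% at 2 months after thinning. The 5 richest resident macrophages held 39.2% of these UMIs at 18 months and 81.3% at 2 months. Among cells with Xist and no Y-linked UMI the resident ratio was −0.0033. Other macrophages held the higher level at both ages, 306 CPM (290 to 323) at 18 months and 258 CPM (239 to 279) at 2 months (0.24, 0.11 to 0.38). Resident macrophages thus had 5 of 8 measured members called higher, Ccl6, Ccl7, Ccl8, Ccl12 and Ccr2, beside 4.10% of all genes, and none lower, beside 3.60%. Other macrophages had 1 of 7 called higher (3.80% of all genes) and 1 lower (3.04%). The median log2 ratio of the measured members was 0.69 in resident macrophages, against −0.01 over all genes measured there, and −0.04 in other macrophages, against 0.01.

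Most calls in the other classes concerned few UMIs. Among B cells 2 of 5 measured members were called higher (18.0% of all genes) and none lower (6.40%), and in vascular endothelial cells 3 of 5 (5.09%) and none lower (4.02%). Smooth muscle cells had 3 of 4 called higher (5.47%) and 1 lower (2.04%), and cardiomyocyte-like cells 1 of 3 higher (6.23%) and none lower (2.36%). T cells had 6 of 7 called higher (10.6%) and none lower (2.86%), with 304 UMIs of Ccl6 at 18 months and 12 at 2 months. Of these Ccl6 UMIs, 5 cells held 54.3% at 18 months. Free RNA could give 39.1% of them at 18 months and 100% at 2 months. All T-cell calls but that of Ccl8 had a free-RNA part of 25% or more in at least 1 library. Group 2 innate lymphoid cells had 3 of 8 higher (2.95%) and 2 lower (4.88%), among them Ccl7 with 82 UMIs at 18 months, all in 5 cells, and 8 at 2 months. Monocytes had 1 of 6 called higher (5.28%) and 1 lower (4.82%), and dendritic cells none of 7 higher (5.65%) and 1 lower (7.80%). In B cells, vascular endothelial cells, fibroblasts and smooth muscle, every Ccl6, Ccl9 or Ccr2 call had an estimated free-RNA part above 80% in both libraries. Ccl6 UMIs after thinning were in 3.16% of vascular endothelial cells at 18 months and 0.774% at 2 months, while the 18-month library held more neutrophils.

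Likeness to other genes was measured as the Pearson correlation of log2(CPM + 1) over the 22 class and library sums. Ccl8 was closest to Pla2g2d (0.861), Ccl12 to Ms4a14 (0.958) and Folr2 (0.925), and Ccl24 to the complement genes C1qa (0.953) and C1qc (0.951). Ccl11 was closest to Efemp1 (0.951), Ccl2 to Abca9 (0.946), Ccl7 to Cmklr1 (0.889), Ccl6 to Alox5ap (0.981), Ccl9 to Tifab (0.975) and Ccr2 to Dok2 (0.936). Among the members, Ccl2 with Ccl7 (0.873) and Ccl12 with Ccl24 (0.863) were the closest pairs. These sums share library, depth and free RNA, and the values describe 11 classes in 2 libraries.

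Of the 28 other genes of the CC chemokine axis, 126 gene and class pairs were measured. Of these, 38 were called higher at 18 months and 22 lower, beside 7.10% higher and 4.78% lower over all genes. Unlike those of the 9 genes, these calls were not sorted by free-RNA part or by concentration in few cells. Ccr1, the receptor of Ccl6 and Ccl9, was called higher in neutrophils, at 895 CPM at 18 months, against 573 CPM at 2 months (log2 ratio 0.64, 0.52 to 0.76), although the mature cluster alone gave 0.22, and lower in macrophages, at 26.2 CPM at 18 months, against 40.8 CPM at 2 months (−0.64). Ccr3, the eotaxin receptor, had 9 UMIs in neutrophils at 18 months and 2 at 2 months and did not reach the minimum in any class. Ccr8, the receptor of Ccl8 in mice, measured 52.6 CPM at 18 months and 62.3 CPM at 2 months in group 2 innate lymphoid cells (−0.24) and was not called there. Ccl5, a T-cell chemokine, was called higher in T cells, at 4357 CPM at 18 months, against 1658 CPM at 2 months (1.39). The make-up of the T class differed, and no Ccl5 ratio within its clusters was taken. The cluster led by Ccl5 itself made up 70.5% at 18 months and 87.8% at 2 months. A cluster led by Dntt and with Rag1 made up 15.2% at 18 months and 2.03% at 2 months. Ccl3 and Ccl4, inflammatory chemokines of myeloid cells, were called lower in monocytes, Ccl3 at 159.8 CPM at 18 months, against 341 CPM at 2 months (−1.09), and Ccl4 at 105 CPM at 18 months, against 413 CPM at 2 months (−1.98). Within the Ly6c2 monocyte cluster alone the ratios were −0.94 (−1.16 to −0.72) for Ccl3 and −1.80 (−2.03 to −1.57) for Ccl4. In dendritic cells the CCR4 ligands Ccl17 and Ccl22 were called higher, Ccl17 at 259 CPM at 18 months, against 102 CPM at 2 months (1.34), and Ccl22 at 54.7 CPM at 18 months, against 17.7 CPM at 2 months (1.63). In the Cd209a cluster alone they were 1.46 and 1.91. The scavenging receptor Ackr4 was called lower in fibroblasts, at 12.1 CPM at 18 months, against 19.0 CPM at 2 months (−0.65).

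A list of 14 cytokines, receptors and factors linked to the regulation of these chemokines had 101 measured pairs. Of these, 17 were called higher and 10 lower, beside the same 7.10% higher and 4.78% lower over all genes. They too were not sorted by free-RNA part or by concentration in few cells. Il1b, a cytokine that induces Ccl2 in many cells, was called higher in macrophages, at 1455 CPM at 18 months, against 956 CPM at 2 months (0.61), and in neutrophils, at 15120 CPM at 18 months, against 7729 CPM at 2 months (0.97), where mature neutrophils alone gave 0.33. Dendritic cells were called lower for Il1b, at 458 CPM at 18 months, against 1934 CPM at 2 months (−2.08), and the Cd209a cluster alone gave −1.95. Il6 was called lower in fibroblasts, at 5.34 CPM at 18 months, against 13.5 CPM at 2 months (−1.33).

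**Figure D5:**
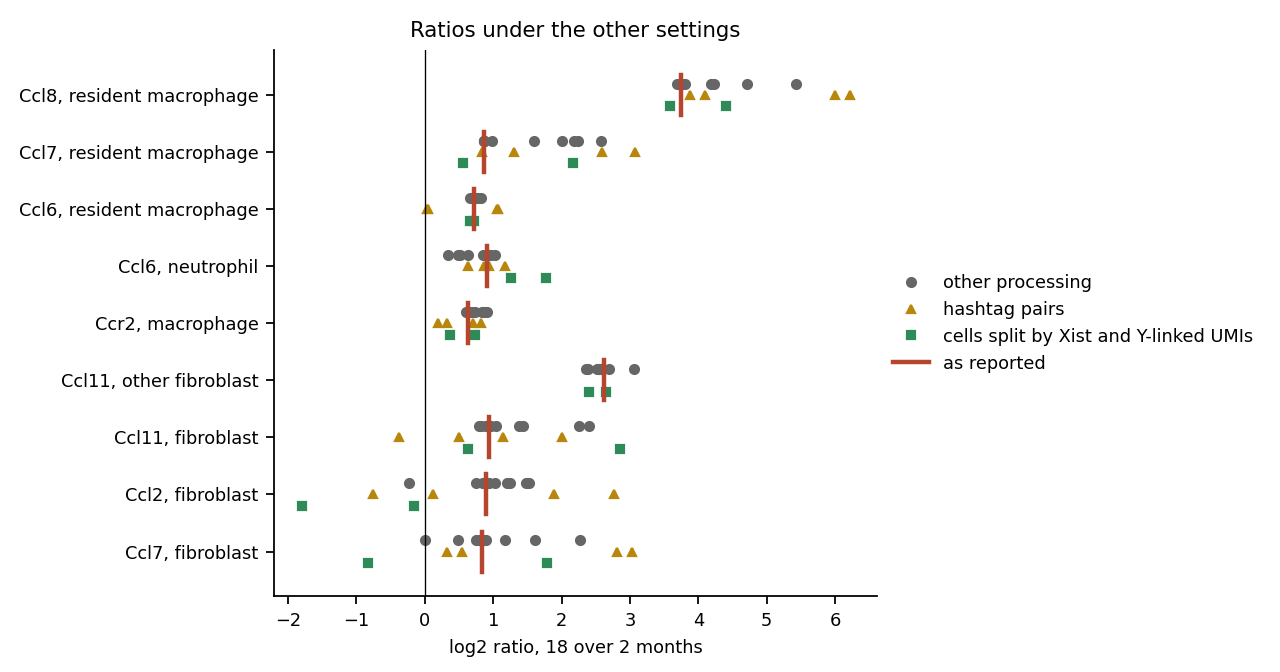
Log2 ratios of 18 over 2 months for 9 gene and cell pairs as reported (red bar) and under the other settings: other processing (grey circles), pairings of hashtags (triangles) and cells split by Xist and Y-linked UMIs (squares). The Ccl8 ratio of resident macrophages lies between 3.59 and 6.21 in every setting that gave a value, while the Ccl2 ratio of fibroblasts falls below 0 in 4 of them.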

How the data were processed

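Single-cell 3' libraries of heart cells, 1 at 18 months and 1 at 2 months, were used; the lymph node libraries of the series were not used here. The authors deposited whole-number UMI counts per gene and barcode, made with Cell Ranger 3.1.0 on mm10 (GRCm38), per the submitters' processing notes. Each count stands for 1 molecule, which limits but does not remove amplification effects. The 9 genes and all lists were chosen with earlier results of these data known.

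Barcodes were kept from 200 detected genes upward if mitochondrial UMIs made up no more than 15% (8035 of 8844 at 18 months and 11388 of 12235 at 2 months), and Scrublet at an expected rate of 8% marked 228 and 493 as doublets, which were removed. Total UMIs were 53528180 and 102421485. Scanpy 1.11.5 clustered both libraries together on 3000 variable genes, with 40 components, 20 neighbours and Leiden resolution 2. The 9 genes and the 28 other genes of the CC chemokine axis could not enter these variable genes, while other chemokine genes could. Clusters were named from markers; naming limits were set after the clusters were seen, and names and sub-groups are rebuilt here, so they may differ from the study's.

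UMIs were summed per class and library. Levels are CPM with exact Poisson 95% intervals, and log2 ratios of 18 over 2 months have exact conditional binomial 95% intervals. Both cover counting error only, since cells are not replicates, and the calling rule is a description of 2 libraries. Free RNA was estimated from markers of other lineages. All 9 genes are given in every class, and like genes are those with the highest correlation among genes with at least 500 UMIs. Alternatives used edgeR 4.0.16 factors, other filters and splits of cells. What each hashtag marks is not known from the labels. CPM were computed from the summed counts, and levels of different genes are not compared with each other.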

Additional observations from a re-analysis of the deposited data

Results flagged for a closer look

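In 2 cases the ratio of 18 over 2 months had opposite directions in neighbouring cell groups. For Ccl2, the log2 ratio in fibroblasts outside the Pi16 and the Wif1 or Comp sub-groups (1.76) exceeded that in Pi16 adventitial fibroblasts (−1.0) by 2.75. For Ccl11, the log2 ratios were 2.63 and −1.23 in the same sub-groups, a gap of 3.86. Each side was called on its own, but with 1 library per age the difference between the sub-groups was not tested. The Pi16 side was not stable, and the main Pi16 cluster alone turned the sign of both genes. Over the other settings the Pi16 ratio ran from −2.85 to 0.83 for Ccl2 and from −3.76 to 3.19 for Ccl11. In the remaining fibroblasts it ran from −1.08 to 1.92 for Ccl2 and from 2.35 to 3.05 for Ccl11.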

How the results depend on the processing

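In all, 45 ratios were recomputed under 17 other settings, and 53 ratio and setting pairs gave no value because too few cells or UMIs were left. Of the 18 called ratios, 7 kept their sign in every setting that gave a value, but not always their size. Ccl8 lay between 2.96 and 6.29 in macrophages and between 3.59 and 6.21 in resident macrophages. Ccl11 lay between 2.35 and 3.05 in fibroblasts outside the Pi16 and the Wif1 or Comp sub-groups, where no hashtag pairing gave a value. Ccl6 lay between 0.34 and 1.77 in neutrophils and between 0.038 and 1.08 in resident macrophages, Ccl7 between 0.56 and 3.07 in resident macrophages and Ccr2 between 0.20 and 0.92 in macrophages; the lowest values of Ccl6, Ccl7 and Ccr2 are under the 1.5-fold limit. Scaling by TMM or by the median of ratios moves all genes of a class alike, beyond 0.1 in B cells alone (−0.20), and the 45 ratios have free-RNA parts under 25%, so these settings could turn few signs and turned none.

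The signs that turned were the following, as log2 ratios. Ccl2 in fibroblasts was −0.23 without the 5 richest cells, −0.76 for Hashtag11 against Hashtag09, −0.16 in cells with Xist and no Y-linked UMI and −1.80 in cells with Y-linked UMIs and no Xist. Ccl7 in fibroblasts was −0.82 in cells with Y-linked UMIs, and Ccl11 in fibroblasts −0.37 for Hashtag11 against Hashtag09. Ccl12 in resident macrophages was −0.56 and −0.25 for Hashtag11 and Hashtag12 against Hashtag09, and Ccr2 there −0.0033 in cells with Xist. Ccl2 in other macrophages was −0.0022 for Hashtag12 against Hashtag10, and Ccl24 there 0.17 and 0.92 for Hashtag11 and Hashtag12 against Hashtag10 and 0.89 in cells with Xist. In Pi16 fibroblasts Ccl2 was 0.22 with clusters weighted equally and 0.83 in cells with Xist, and Ccl11 was 0.15 under a stricter cell filter (at most 8% mitochondrial UMIs and 15000 UMIs), 1.08 with clusters weighted equally and 3.19 in cells with Xist. In the remaining fibroblasts Ccl2 was −0.95 in cells with Xist and −1.08 in cells with Y-linked UMIs, and Ccl7 −0.22 in cells with Y-linked UMIs. The cause was not tested. The split by Xist and Y-linked UMIs and the leaving out of the richest 1% were chosen after seeing the data.

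Some values moved with their sign kept. Ccl11 in fibroblasts (0.94) was 2.41 under the stricter filter, 0.79 without the 5 richest cells, 1.38 without the richest 1%, 1.43 with cells and 2.25 with clusters weighted equally, 0.82 at Leiden resolution 1, 1.14, 0.50 and 2.01 for 3 hashtag pairings, 2.86 in cells with Xist and 0.63 in cells with Y-linked UMIs. Ccl8 in macrophages (3.33) was 5.20 thinned, 4.22 without the 5 richest cells, 4.29 without the richest 1%, 6.07 and 6.29 for Hashtag11 and Hashtag12 against Hashtag09 and 4.14 in cells with Y-linked UMIs. Ccl6 in neutrophils (0.91) was 0.63 under the stricter filter, 0.48 thinned, 1.02 without the 5 richest cells, 0.52 with cells and 0.34 with clusters weighted equally, 0.63 and 1.18 for 2 hashtag pairings, and 1.77 and 1.26 in cells with Xist and with Y-linked UMIs. Against 30 pairs called higher, thinning gave 11 (10 of the 30), cells with Y-linked UMIs 13 (11 of them), cells with Xist 20 (15), leaving out the 5 richest cells 21 (17) or the richest 1% 23 (20), the stricter filter 24 (19) and subtracting free RNA 21 (all among the 30). Against 5 called lower, thinning and leaving out the 5 richest cells or the richest 1% gave 2 each, none of them among the 5; the stricter filter gave 3 (2 of the 5), cells with Xist 3 (1) and cells with Y-linked UMIs 8 (1). No paired analysis was possible because each age has 1 library. Depth limits the values of Ccl8 outside macrophages and of all 9 genes in the smaller classes.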

Other observations

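Values outside the 11 classes showed further sources. Mast cells or basophils were seen as 36 cells at 18 months and 6 at 2 months. They held 348 UMIs of Ccl9 at 18 months (2125 CPM, above the monocyte level) and 0 at 2 months. Of Ccl2 they held 138 UMIs at 18 months (843 CPM) and 42 at 2 months (2318 CPM), above the macrophage level at both ages. Of these Ccl2 UMIs, 5 cells held 99.3% at 18 months. An unnamed fibroblast-like cluster led by Apod and Cxcl13 (5 cells at 18 months and 35 at 2 months) held Ccl11 at 341 CPM at 18 months and 779.8 CPM at 2 months. Both are too small for a comparison of the ages.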
